A study of Mus musculus with 8 samples.

Results

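The genes described here are 9 transcription factors that set and keep the helper and killer lineages of T cells. They are Tbx21, which encodes T-bet, Eomes, Gata3, Rora, Foxp3, Runx1, Runx3, Zbtb7b, which encodes ThPOK, and Ahr. They were taken by name from the deposited gene tables, with no threshold on their values. All 9 were found among 25078 gene rows, and all 9 were among the 12428 genes that passed the filter on low counts. RNA was sequenced from donor T cells of the spleen, which were sorted 6 days after hematopoietic cell transplantation (HCT). The recipients were lethally irradiated WT BALB/c mice given T cell-depleted bone marrow of WT C57BL/6 mice, and the donor T cells came from WT or STAT3-deficient (STAT3KO) C57BL/6 mice. Each genotype was sorted into CD4 and CD8 T cells, which gave 4 groups of 2 libraries. STAT3KO donors carried floxed Stat3 and a Cre driven by Cd4 regulatory sequences, which is active in thymic precursors of both lineages. The bone marrow and the hosts were WT in every group. The study describes the recipients of WT T cells as having graft-versus-host disease (GVHD) and those of STAT3KO T cells as without it. The disease state of the host therefore went with the donor genotype. A difference between genotypes below cannot be told apart from one between hosts with and without GVHD. Each library pooled the cells of 3 recipients, so a p-value measures the spread between pools, and with bulk RNA more transcript per cell cannot be told apart from more cells that carry it.

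CD4 helper T cells and CD8 killer T cells arise from a common thymic precursor. ThPOK holds the helper fate and Runx3 the killer fate, and the 2 factors restrain each other. In activated cells, further factors direct what a T cell makes. T-bet drives IFN-γ and type 1 responses, its relative Eomesodermin supports cytotoxic and memory functions of killer cells, and Gata3 drives the type 2 cytokines. RORα acts in Th17 cells, whose differentiation needs STAT3 downstream of IL-6, IL-21 and IL-23. Foxp3 defines regulatory T cells, Runx1 acts in T cell development and partners several of the other factors, and the aryl hydrocarbon receptor Ahr senses ligands from diet and metabolism and favours IL-22 and IL-17. In helper cells STAT3 is known to act upstream of several of these genes.

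The libraries matched their labels. Stat3 stood at 428 to 436 CPM (read counts scaled to a common library size, with TMM factors) in the 4 WT libraries and at 120 to 143 CPM in the 4 STAT3KO libraries. The source of the Stat3 reads that remained in STAT3KO libraries was not tested. Cd4 was between 1361 and 1602 CPM in the CD4 libraries and between 1.04 and 8.16 CPM in the CD8 libraries, and Cd8a was between 1.70 and 16 CPM in the CD4 libraries and between 819 and 984 CPM in the CD8 libraries. Total counts lay between 20171396 and 23282757 per library. Of 9 macrophage markers, 8 were higher in every library numbered 2 than in any numbered 1, and Cd68 overlapped. C1qa, for instance, was between 1.03 and 3.05 CPM in the 4 libraries numbered 1 and between 13.7 and 22.9 CPM in the 4 numbered 2 (marker values are CPM by column total). The B cell list (8 of 8) summed to between 96.2 and 107 CPM in WT CD4, between 149 and 170 CPM in STAT3KO CD4 and between 37.5 and 54.9 CPM in CD8 libraries. Nearly all of that sum in CD4 T cells was Cd22, and the B cell gene Ms4a1 had at most 0.147 CPM. Cd79b, another gene of the list, was at 0.892 to 2.46 CPM in CD4 and at 11.9 to 12.8 CPM in CD8 libraries.

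Among the members, levels can be compared between genes only per exon length, as RPKM. In WT CD4 T cells the order of mean RPKM was Gata3 (51.7), Runx3 (35.4), Tbx21 (31.1), Zbtb7b (28.7), Rora (18.3), Ahr (12.4), Runx1 (6.41), Foxp3 (2.87) and Eomes (0.808). The ranges of the first 4 overlapped from neighbour to neighbour, and those of the others did not. In STAT3KO CD4 T cells, Tbx21 (60.5 RPKM) and Gata3 (59.2 RPKM) headed the order with overlapping ranges, and Eomes (3.24 RPKM) remained last but overlapped Foxp3 (3.58 RPKM). In WT CD8 T cells Runx3 (54.0 RPKM) and Tbx21 (52.7 RPKM) came first and overlapped, followed without overlap by Gata3 (27.4 RPKM) and Rora (17.7 RPKM). Eomes had 11.2 RPKM there, between Zbtb7b (12 RPKM), whose range it overlapped, and Runx1 (4.75 RPKM). In STAT3KO CD8 T cells the first 3 were Tbx21 (62.5 RPKM), Runx3 (54.0 RPKM) and Gata3 (28.4 RPKM), and Ahr was last with 3.03 RPKM.

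**Figure D1:**
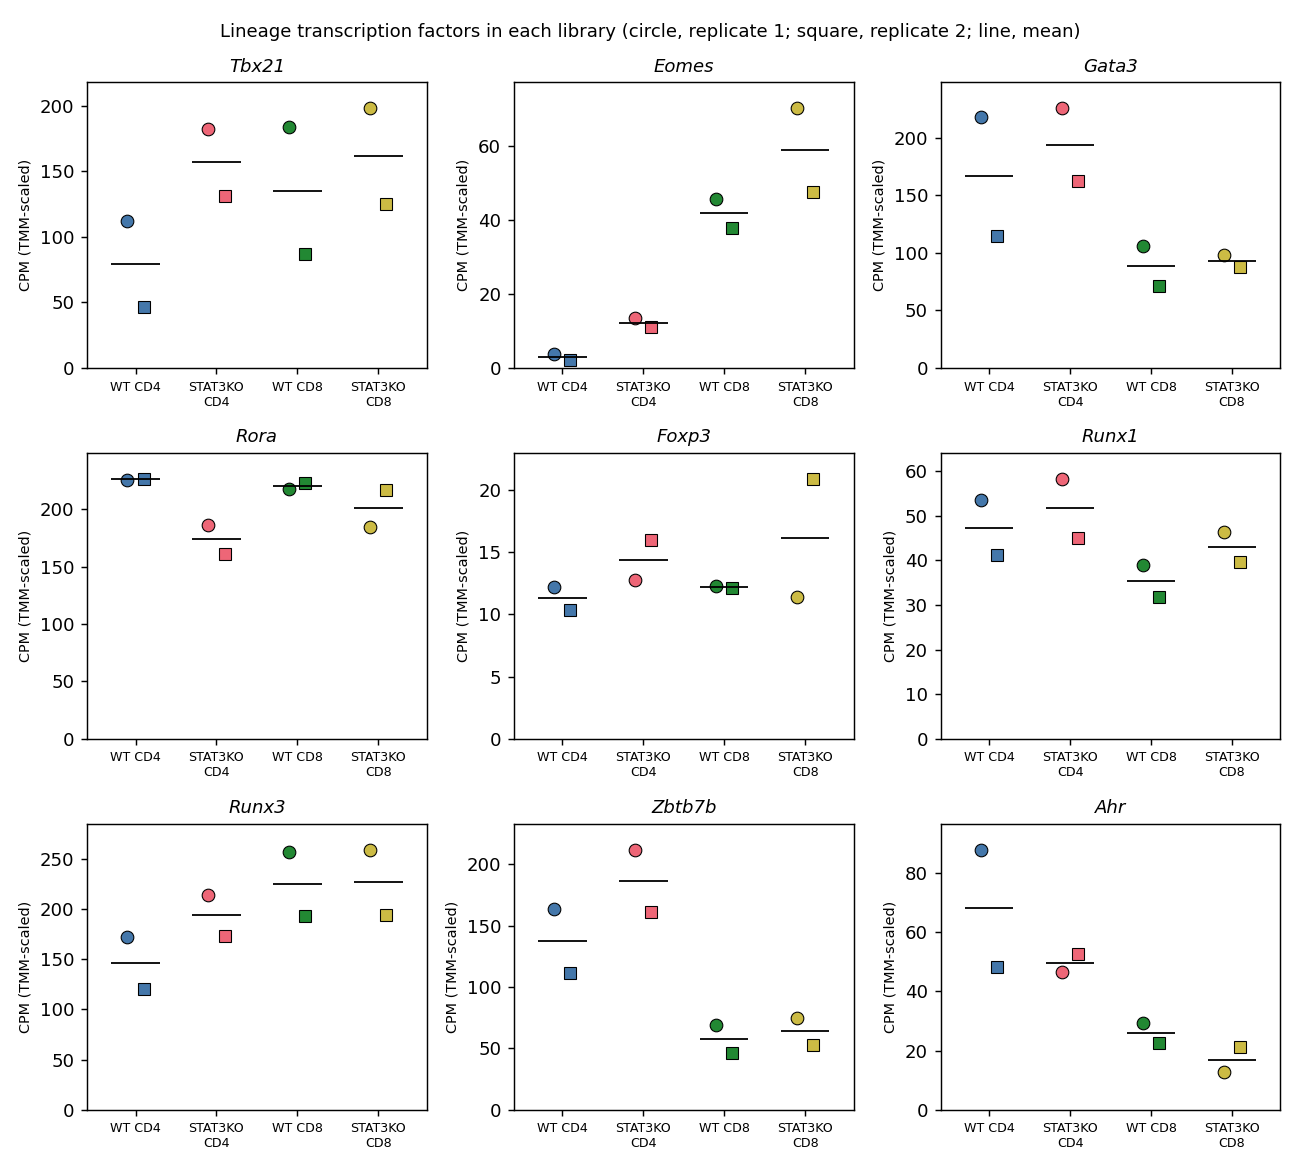
Level of each of the 9 factors in CPM after TMM scaling (vertical axis, from 0, a separate scale for each gene) in the 8 libraries, arranged by group. Circles are replicate 1, squares are replicate 2 and lines are group means of 2 libraries; Eomes is at 2.27 to 3.74 CPM in WT CD4 and at 11 to 13.5 CPM in STAT3KO CD4 libraries, and Zbtb7b is higher in every CD4 library than in any CD8 library.

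The first comparison asked which of the factors differed between STAT3KO and WT CD4 T cells. Eomes rose about 4-fold, and it was the only member of the 9 that passed the test. This compares with 11.6% of all genes tested. With the replicate number as a term in the edgeR fit, 5 of the 9 passed (Tbx21, Rora, Runx3 and Zbtb7b beside Eomes), against 30.1% of all genes. Tbx21, the relative of Eomes, was higher in both STAT3KO libraries than in both WT libraries but with a wide spread, and Rora was lower in both. The groups did not overlap for 5 of the 9 members (Tbx21, Eomes, Rora, Foxp3 and Runx3), against 53.5% of all genes. The median log2 fold change of the members was 0.35, and that of all genes tested was 0.017.

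Eomes (chromosome 9, 118478189 to 118486132, plus strand, mm10) is a T-box factor of killer and memory T cells. It had 75 and 48 counts in WT CD4 T cells (3.74 and 2.27 CPM) and, without STAT3, 270 and 241 counts (13.5 and 11 CPM). The lowest STAT3KO value was therefore above the highest WT value. Mean levels were 3.01 ± 1.04 CPM and 12.3 ± 1.76 CPM (SD, n = 2), and the log2 fold change was 2.03 (SE 0.29, 95% interval 1.36 to 2.7, edgeR adjusted p 0.00551). Within replicate number 1 the ratio was 3.61 and within number 2 it was 4.86. The call held in all 16 alternatives, with log2 fold changes between 1.23 and 2.40 and adjusted p up to 0.0417. Even so, Eomes in STAT3KO CD4 T cells stayed well under its level in killer cells. It reached 22.9% and 18.7% of the STAT3KO CD8 mean in the 2 libraries, where WT CD4 T cells reached 8.95% and 5.43% of the WT CD8 mean. In the same STAT3KO CD4 libraries Cd8a was at 0.193% and 1.82% of its CD8 mean and Cd8b1 at 1.65% and 3.56%. NK cells also use Eomes. The libraries were sorted on TCRβ and CD4, and a part of NK cells in the Eomes values was not tested. The summed NK cell markers (7 of 7) were at 18.9 to 26.6 CPM in WT CD4 libraries. In STAT3KO CD4 libraries they were at 19.2 to 29.7 CPM, and most of either sum was Klrb1c. Klra4 and Klra8 were at 0 in all 8 libraries. Ncr1 had 0 and 0 counts in WT CD4 against 5 and 1 in STAT3KO CD4 libraries, and Klra9 had 1 and 0 against 0 and 0. Fcer1g was at 2.23 and 5.75 CPM in WT CD4 against 3.05 and 7.56 CPM in STAT3KO CD4 libraries. Tyrobp, which myeloid cells also use, was at 0.545 and 0.934 CPM in the CD4 libraries numbered 1 and at 3.17 and 3.55 CPM in those numbered 2.

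The stretch around the start of Eomes is shown because Eomes was the member called, as RefSeq places it on GRCm38.p6, from 250 bases before the start site to 30 bases of transcript (chr9:118477939-118478218, plus strand, lower case because none of the searched motifs matched):
Eomes: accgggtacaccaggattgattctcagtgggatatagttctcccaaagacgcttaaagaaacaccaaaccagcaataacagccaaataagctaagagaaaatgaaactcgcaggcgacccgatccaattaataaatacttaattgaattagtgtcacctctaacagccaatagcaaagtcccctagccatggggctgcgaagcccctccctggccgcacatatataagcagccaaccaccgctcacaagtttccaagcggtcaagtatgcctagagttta

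Short letter patterns were searched on both strands in 300-base windows around the starts of the members. These were TTCNNNGAA for STAT factors, which reads the same on both strands, TGTGGT for Runx, AGGTGTGA for T-box, GATAAG for Gata, GCGTG for Ahr and AGGTCA for ROR factors. Among 32817 promoter windows of all genes they occurred in 8.29%, 16.8%, 1.27%, 7.45%, 32.4% and 16.3%, respectively. RefSeq entries were found for 8 of the 9 members, with 12 windows in all, and Ahr had none. The STAT pattern was in 1 of the 12 windows and the Runx pattern in 3, and 5 windows held none of the patterns, those of Tbx21, Eomes and Gata3 among them.

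Tbx21 (chromosome 11, 97098007 to 97115331, minus strand) encodes the main factor of type 1 responses. WT CD4 libraries had 112 and 46.7 CPM of it, and STAT3KO CD4 libraries 183 and 132 CPM. The groups did not overlap, but the 2 WT libraries differed from each other by more than the closest STAT3KO and WT libraries did. The log2 fold change was 0.98 (SE 0.48, 95% interval -0.12 to 2.09, edgeR adjusted p 0.233), an interval that includes 0. With the replicate number in the fit it was 1.09 (edgeR adjusted p 0.000691), so the call depended on that term. Within replicate number 1 the ratio was 1.63 and within number 2 it was 2.82.

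Gata3, Rora and Ahr belong to the helper programmes of type 2 and Th17 cells. Gata3 (chromosome 2, 9857078 to 9878600, minus strand) stood at 218 and 115 CPM in WT and at 226 and 162 CPM in STAT3KO CD4 T cells, with overlapping groups (edgeR log2 fold change 0.22, SE 0.31, adjusted p 0.717). Rora (chromosome 9, 68653786 to 69388246, plus strand) stood at 226 CPM in each WT CD4 library and, without STAT3, at 186 and 161 CPM. Rora was thus lower in both STAT3KO libraries, at 76.9% of the WT level, but missed the threshold (edgeR log2 fold change -0.38, SE 0.12, 95% interval -0.66 to -0.10, adjusted p 0.0858), while DESeq2 gave an adjusted p of 0.0257. Ahr (chromosome 12, 35497979 to 35534989, minus strand) stood at 87.7 and 48.3 CPM in WT and at 46.4 and 52.6 CPM in STAT3KO CD4 T cells. These overlapped, and the WT library numbered 1 stood above the other 3 (edgeR log2 fold change -0.46, SE 0.31, adjusted p 0.400, and 0.01 without that library).

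Foxp3 (chromosome X, 7579676 to 7595243, plus strand) marks regulatory T cells. It was low in all 8 libraries, between 10.3 and 20.8 CPM. The WT CD4 libraries had 12.2 and 10.3 CPM, against 12.8 and 15.9 CPM in STAT3KO CD4 T cells. The CD8 libraries had 12.3 and 12.1 CPM in WT, against 11.4 and 20.8 CPM in STAT3KO, and their range overlapped that of the CD4 libraries. Of its annotated exon bases, 31.5% are shared with other genes, among them Ccdc22 and Ppp1r3f on the opposite strand and Flicr on its own. Of the 1443 shared bases, 853 lie on its own strand, where counting by strand would not separate them. The exons are those of GENCODE, whereas reads were counted per RefSeq gene. How the counting treated strand was not stated either, so the Foxp3 values are uncertain. Such sharing was at most 5.83% for the other members (Gata3). The log2 fold change in STAT3KO CD4 T cells was 0.35 (SE 0.27, 95% interval -0.29 to 0.98, edgeR adjusted p 0.473). Of the RefSeq windows of members, the second one of Foxp3 was the sole one with the STAT pattern, and it is shown for that reason (GRCm38.p6, chrX:7580233-7580512, plus strand, 250 bases before the start to 30 after it). Capitals mark, in order, the STAT pattern, 2 ROR patterns and an Ahr pattern, which do not overlap:
Foxp3: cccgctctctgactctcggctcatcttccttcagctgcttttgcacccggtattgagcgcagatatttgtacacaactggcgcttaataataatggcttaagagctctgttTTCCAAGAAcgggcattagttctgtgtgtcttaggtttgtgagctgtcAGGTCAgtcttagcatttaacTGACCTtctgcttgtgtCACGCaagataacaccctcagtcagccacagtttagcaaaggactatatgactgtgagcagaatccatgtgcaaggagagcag

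None of the lineage-fixing factors passed the test between the genotypes of CD4 T cells in the main fit. With the replicate number in the edgeR fit, Runx3 (log2 fold change 0.42, adjusted p 0.00289) and Zbtb7b (0.45, adjusted p 0.00170) passed. Runx1 did not (0.13, adjusted p 0.314). The calls of Runx3 and Zbtb7b thus depended on that term, with which 30.1% of all genes passed. Runx3 (chromosome 4, 135120645 to 135177990, plus strand), the killer-lineage factor, stood at 173 and 121 CPM in WT and at 215 and 174 CPM in STAT3KO CD4 T cells. The highest WT value lay just under the lowest STAT3KO value (edgeR log2 fold change 0.41, SE 0.23, 95% interval -0.13 to 0.94, adjusted p 0.312). Zbtb7b (chromosome 3, 89377644 to 89393378, minus strand), the helper-lineage factor, stood at 164 and 112 CPM against 212 and 161 CPM (WT before STAT3KO), with overlap (edgeR log2 fold change 0.44, SE 0.27, 95% interval -0.19 to 1.06, adjusted p 0.349). Runx1 (chromosome 16, 92601466 to 92826074, minus strand) stood at 53.4 and 41.2 CPM against 58.2 and 45.1 CPM, again with overlap (edgeR log2 fold change 0.13, SE 0.19, adjusted p 0.726).

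Runx1 and Runx3 share a paired Runx pattern near their first annotated starts, and it is shown because few promoter windows hold such a pair. In each 30-base window below (GRCm38.p6), capitals mark 2 Runx patterns 2 bases apart, read on the opposite strand. For Runx1 the window is chr16:92826025-92826054 on the minus strand, where the first pattern starts 28 bases after the start site. For Runx3 it is chr4:135120504-135120533 on the plus strand, where it starts 134 bases before the start site:
Runx1: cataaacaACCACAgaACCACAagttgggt
Runx3: tccctcaACCACAgaACCACAaggccaggc
The windows share a run of 18 bases. A pair of Runx patterns whose starts lie within 12 bases occurred in 56 of the 32817 windows of all genes (0.171%). Zbtb7b held a single Runx pattern, 89 bases before its second start.

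The same question in CD8 T cells gave no call among the members. Eomes and Runx1 were higher and Rora and Ahr lower in both STAT3KO libraries than in both WT libraries, none of them past the test. By edgeR, 0 of the 9 members were called at an adjusted p under 0.05, against 2.07% of all genes tested. An unadjusted p under 0.05 was found for 0 of the 9, against 2400 of all 12428 genes tested. DESeq2 also called 0, and with the replicate number in the fit 2 passed (Eomes and Runx1), against 18.2% of all genes. The groups did not overlap for those 4 of the 9 members, against 49.7% of all genes. The median log2 fold change of the members was 0.15, and that of all genes was -0.007.

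Eomes stood at 45.6 and 37.9 CPM in WT and at 70.2 and 47.6 CPM in STAT3KO CD8 T cells. The groups were separate, but the 2 STAT3KO libraries were further apart than the nearest libraries of the 2 genotypes (edgeR log2 fold change 0.50, SE 0.24, 95% interval -0.06 to 1.05, adjusted p 0.310). The summed NK cell markers were at 25.8 to 28.3 CPM in STAT3KO and at 40.4 to 48.7 CPM in WT CD8 libraries. Their part in the Eomes values was not tested. Ahr stood at 29.3 and 22.4 CPM against 12.8 and 21.1 CPM (edgeR log2 fold change -0.61, SE 0.32, adjusted p 0.360). Runx1 stood at 38.9 and 31.7 CPM against 46.3 and 39.7 CPM (edgeR log2 fold change 0.28, SE 0.19, adjusted p 0.476).

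Runx3 and Tbx21 overlapped between the genotypes of CD8 T cells. Runx3 stood at 257 and 193 CPM in WT and at 259 and 194 CPM in STAT3KO, and its interval of the log2 fold change ran from -0.53 to 0.54. Tbx21 stood at 184 and 87.1 CPM in WT and at 198 and 125 CPM in STAT3KO, with an interval from -0.84 to 1.35. Zbtb7b had 68.9 and 46.7 CPM against 75.1 and 52.9 CPM, Gata3 106 and 71.3 CPM against 98.2 and 87.5 CPM, and Rora 218 and 223 CPM against 185 and 217 CPM (WT before STAT3KO). Adjusted p by edgeR for Tbx21, Gata3, Rora, Foxp3, Runx3 and Zbtb7b lay between 0.479 and 0.989.

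**Figure D2:**
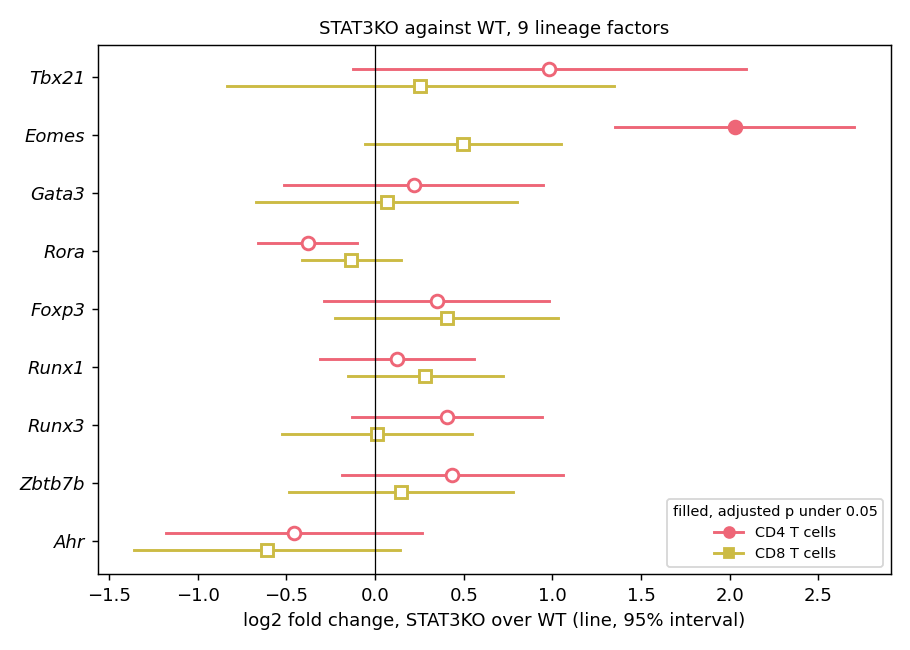
Log2 fold change of STAT3KO over WT (horizontal axis) for the 9 factors in CD4 (circles) and CD8 T cells (squares), with lines for the 95% interval from the edgeR fit of 8 libraries; filled symbols have an adjusted p under 0.05. Eomes in CD4 T cells, at 2.03, is the one filled symbol, and the CD8 intervals all include 0.

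Whether the effect of STAT3 loss differed between the lineages was tested as an interaction. By edgeR, 0 of the 9 members and 0% of all genes tested passed, while 982 genes had an unadjusted p under 0.05, Eomes as the 1 member among them. For Eomes the effect in CD8 was lower than in CD4 T cells (difference on the log2 scale -1.53, SE 0.38, 95% interval -2.41 to -0.66, edgeR adjusted p 0.288). DESeq2 called Eomes alone among the members, with an adjusted p of 0.0103, and 190 genes in all. With the replicate number in the edgeR fit Eomes was also the 1 member called (-1.57, adjusted p 0.00434), against 3.24% of all genes. The difference for Eomes was thus a call that depended on the tool and on that term.

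The comparison of CD8 with CD4 T cells of the same genotype asked which factors differ between the lineages. Eomes was far higher in CD8, and Zbtb7b and Ahr were lower in CD8 T cells, in both genotypes. These 3 of the 9 members were called in WT, against 23.8% of all genes, and the same 3 in STAT3KO, against 12.5% of all genes. With the replicate number in the fit, 7 passed in WT (42.1% of all genes) and 4 in STAT3KO (29.7% of all genes). The groups did not overlap for 7 of the 9 members in WT (59.3% of all genes) and for 4 in STAT3KO (58.3% of all genes). Rora and Foxp3 were not called in either genotype. In WT the log2 fold change was -0.04 for Rora (95% interval -0.31 to 0.24), whose groups did not overlap. For Foxp3 it was 0.11 in WT (95% interval -0.52 to 0.75). In STAT3KO it was 0.21 for Rora (95% interval -0.07 to 0.49) and 0.17 for Foxp3 (95% interval -0.46 to 0.79).

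Eomes was 13.9-fold higher in WT CD8 than in WT CD4 T cells (edgeR log2 fold change 3.80, SE 0.29, adjusted p 0.000191) and 4.81-fold higher in STAT3KO CD8 than in STAT3KO CD4 T cells (edgeR log2 fold change 2.27, SE 0.26, adjusted p 0.00223). Every CD8 library was above every CD4 library, and both calls held in all 16 alternatives. Zbtb7b in WT CD8 T cells was at 41.9% of the WT CD4 level (edgeR log2 fold change -1.25, SE 0.27, adjusted p 0.0144) and in STAT3KO at 34.3% (edgeR log2 fold change -1.54, SE 0.28, adjusted p 0.0121). The highest CD8 library, at 75.1 CPM, was below the lowest CD4 library, at 112 CPM. Ahr fell to 38.1% in WT (edgeR log2 fold change -1.39, SE 0.32, adjusted p 0.0171) and to 34.3% in STAT3KO CD8 T cells (edgeR log2 fold change -1.54, SE 0.33, adjusted p 0.0218). Its CD8 values of 12.8 to 29.3 CPM lay below its CD4 values of 46.4 to 87.7 CPM. In WT, both the Zbtb7b and the Ahr call were lost without WT CD4 replicate 1 (edgeR adjusted p 0.0629 and 0.0643) or without WT CD8 replicate 2 (0.0700 and 0.0835). In STAT3KO, Zbtb7b was lost without STAT3KO CD4 replicate 1 (0.0798) or STAT3KO CD8 replicate 2 (0.0804), and Ahr without STAT3KO CD4 replicate 1 (0.0821), STAT3KO CD4 replicate 2 (0.0991) or STAT3KO CD8 replicate 1 (0.125).

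Gata3, Runx3 and Runx1 did not overlap between WT CD4 and WT CD8 libraries but missed the threshold. Gata3 was lower in CD8 T cells, at 53.2% of the CD4 level in WT (edgeR log2 fold change -0.91, SE 0.32, adjusted p 0.0771) and at 47.9% in STAT3KO (edgeR log2 fold change -1.06, SE 0.32, adjusted p 0.0705), and DESeq2 called it in both (adjusted p 0.00980 and 0.00333). Runx3 was 1.54-fold higher in WT CD8 T cells (edgeR log2 fold change 0.62, SE 0.23, adjusted p 0.0947, DESeq2 adjusted p 0.0312) and 1.17-fold higher in STAT3KO CD8 T cells with overlap (edgeR adjusted p 0.597). Runx1 leaned the other way from Runx3, at 74.7% of the CD4 level in WT CD8 T cells (edgeR log2 fold change -0.42, SE 0.19, adjusted p 0.150). Tbx21 had a log2 fold change of 0.77 in WT (edgeR adjusted p 0.293) and of 0.04 in STAT3KO (edgeR adjusted p 0.974), with overlapping groups in both.

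**Figure D3:**
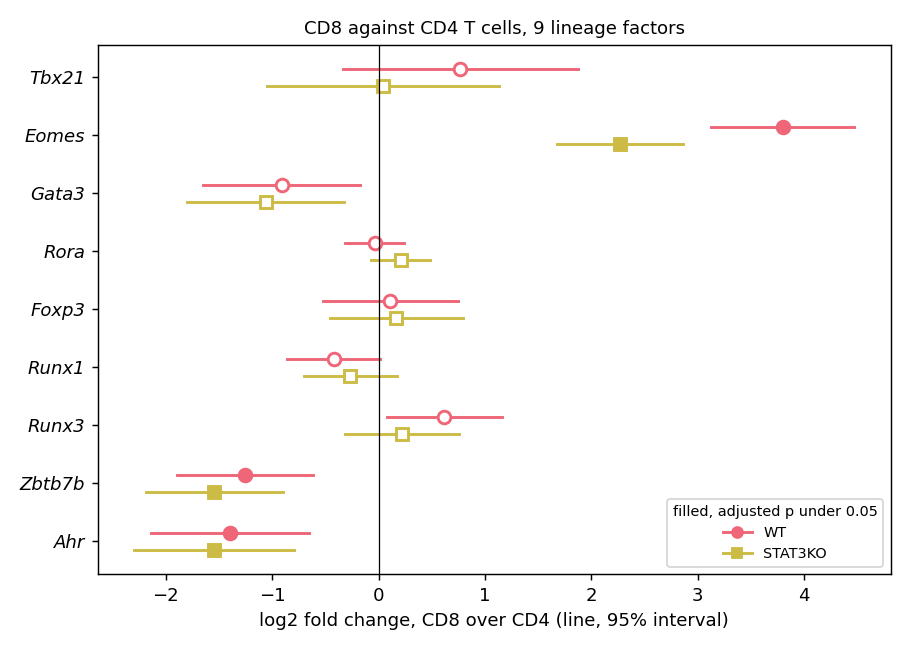
Log2 fold change of CD8 over CD4 T cells (horizontal axis) for the 9 factors in WT (circles) and STAT3KO (squares), with lines for the 95% interval from the edgeR fit of 8 libraries; filled symbols have an adjusted p under 0.05. Eomes lies at 3.80 and 2.27, Zbtb7b at -1.25 and -1.54 and Ahr at -1.39 and -1.54, and these are the filled symbols.

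Pairs of opposed or related factors were also set against each other within a library, as ratios of RPKM. These pairs were chosen after the values had been seen, so the ratios are a description without a test. Zbtb7b over Runx3, the helper factor against the killer factor, was 0.818 and 0.800 in WT CD4 T cells and 0.851 and 0.800 in their STAT3KO counterparts. In CD8 T cells it was 0.231 and 0.208 (WT) against 0.25 and 0.235 (STAT3KO). The lineages were far apart in this ratio, and the genotypes overlapped in CD4 and lay next to each other in CD8 T cells. Tbx21 over Gata3, the type 1 against the type 2 factor, was 0.648 and 0.512 in WT CD4 and 1.02 in each STAT3KO CD4 library, and lay between 1.54 and 2.54 in the CD8 libraries. Here the STAT3KO CD4 libraries stood between WT CD4 and CD8 T cells. Eomes over Tbx21 was 0.0229 and 0.0333 in WT CD4 T cells, against 0.0508 and 0.0575 without STAT3, and lay between 0.171 and 0.299 in the CD8 libraries. Runx3 over Runx1 ran from 5.23 to 6.88 in the CD4 libraries and from 8.74 to 11.8 in the CD8 libraries.

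**Figure D4:**
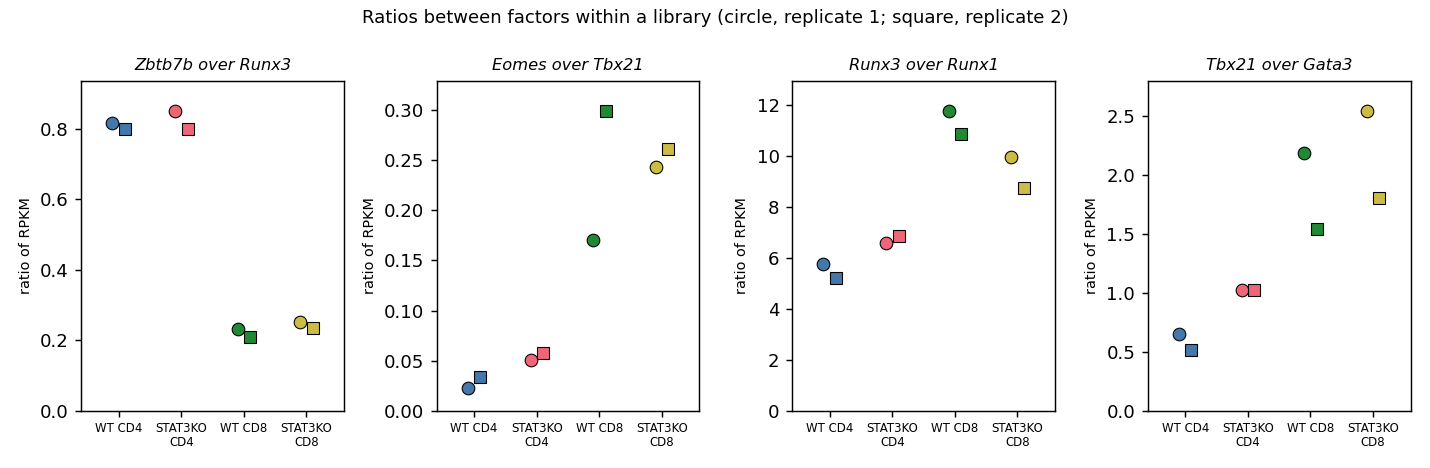
Ratio of the RPKM of paired factors within each library (vertical axis, from 0) by group, with circles for replicate 1 and squares for replicate 2. Zbtb7b over Runx3 is at 0.800 to 0.851 in the 4 CD4 libraries and at 0.208 to 0.25 in the 4 CD8 libraries, and Tbx21 over Gata3 is at 1.02 in both STAT3KO CD4 libraries.

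Genes that act with the factors or downstream of them were taken from 8 lists holding 92 tested genes. In CD4 T cells without STAT3, most Th17 genes beside Rora fell, several killer-cell genes of the Runx3 and Eomes side rose, and a few type 1 genes rose. In CD8 T cells fewer were called. Across the lists, 32 of the 92 genes passed the test in CD4 (11.6% of all genes did) and 10 in CD8 T cells (2.07% of all genes). The lists were written with earlier results of these data known. The counts here and below therefore describe the listed genes and are no test of enrichment. A list with 1 call in CD8 T cells, or with 1 or 2 in CD4 T cells, is too short to be read against these shares. By edgeR, 0 of the 92 differed in effect between the lineages, although 19 had an unadjusted p under 0.05 (982 of all 12428 genes) and DESeq2 called 8.

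On the killer side, 7 of 15 genes rose in STAT3KO CD4 T cells (Gzmk, Nkg7, Klrk1, Klrd1, Fasl, Il2rb and Prdm1) and 2 fell (Gzmb and Crtam), and the median log2 fold change was 0.81. Klrk1, which encodes the activating receptor NKG2D, rose from 11.7 and 12.2 CPM to 78.3 and 79.2 CPM without STAT3 (edgeR log2 fold change 2.72, SE 0.16, adjusted p 0.000563). Gzmk, a granzyme, rose from 18.8 and 19.0 CPM to 67.5 and 72.7 CPM (edgeR log2 fold change 1.89, SE 0.18, adjusted p 0.00153). Il2rb, the β chain of the IL-2 and IL-15 receptors, rose from 822 and 735 CPM to 1434 and 1484 CPM (edgeR log2 fold change 0.91, SE 0.10, adjusted p 0.00217). Gzmb, another granzyme, went the other way, from 533 and 469 CPM to 331 and 308 CPM (edgeR log2 fold change -0.65, SE 0.12, adjusted p 0.0142). The killer list therefore split, with granzymes moving in both directions. Gzmb is named after its values were seen, as are Ifng, Il17a and Maf below. In CD8 T cells Klrk1 rose (edgeR log2 fold change 0.79, adjusted p 0.0456) and Gzmb fell (edgeR log2 fold change -1.11, adjusted p 0.0119), while the other 13 of the 15 genes were not called. Between the lineages, 14 of the 15 were higher in CD8 than in CD4 T cells of WT and 11 in STAT3KO, where 23.8% and 12.5% of all genes were called in either direction. Both counts include Cd8a and Cd8b1, whose calls were set in advance by the sort into CD4 and CD8 T cells.

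Of the 14 type 1 genes beside Tbx21, 3 rose in STAT3KO CD4 T cells and 2 in STAT3KO CD8 T cells, and none fell in either (median log2 fold change 0.15 and 0.12). Ccl5, a chemokine of effector T cells, rose from 25.9 and 21.5 CPM to 151 and 147 CPM in CD4 (edgeR log2 fold change 2.65, SE 0.12, adjusted p 0.000325) and from 194 and 207 CPM to 376 and 385 CPM in CD8 (edgeR log2 fold change 0.92, SE 0.11, adjusted p 0.0147). Cxcr6, a chemokine receptor, rose in CD4 T cells (edgeR log2 fold change 0.65, adjusted p 0.0110). Ifng, the cytokine that T-bet induces, was not called in either lineage, with log2 fold changes of 0.16 and -0.35.

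The Th17 list beside Rora gave the largest share of calls among the 8 lists, since 10 of its 13 genes fell in STAT3KO CD4 T cells and none rose (Ccr6, Il6st and Irf4 were not called), with a median log2 fold change of -1.25. Il1r1, the IL-1 receptor, fell from 78.5 and 101 CPM to 0.850 and 0.777 CPM (edgeR log2 fold change -6.78, SE 0.36, adjusted p 0.000325). Il23r, the IL-23 receptor, fell from 5.84 and 8.27 CPM to 0.350 and 0.366 CPM (edgeR log2 fold change -4.28, SE 0.52, adjusted p 0.00310). Rora itself, at 76.9% of its WT level in the same comparison, missed the threshold. Il17a was at 1.30 and 1.18 CPM in WT CD4 T cells against 0 and 0.0457 CPM in STAT3KO (edgeR adjusted p 0.0178), and it was higher in WT CD8 T cells, at 10.1 and 4.72 CPM (against WT CD4, edgeR adjusted p 0.0188). Of the 13 genes, 3 fell in CD8 T cells (Il17a, Il1r1 and Il21).

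Of 11 type 2 genes beside Gata3, Il10 rose and Il4 and Il4ra fell in STAT3KO CD4 T cells. Il10, an inhibitory cytokine, rose from 64.0 and 38.2 CPM to 140 and 150 CPM (edgeR log2 fold change 1.5, SE 0.29, adjusted p 0.0178), and Il4ra, the IL-4 receptor, fell from 139 and 181 CPM to 75.5 and 76.7 CPM (edgeR log2 fold change -1.07, SE 0.16, adjusted p 0.00711). In CD8 T cells 0 of the 11 were called by edgeR and 2 by DESeq2 (Il10 and Il4ra). An unadjusted edgeR p under 0.05 was found for 4, against 2400 of all 12428 genes. CD8 T cells had 6 of the 11 lower than CD4 T cells in each genotype. Of all genes, 23.8% (WT) and 12.5% (STAT3KO) were called in either direction. Maf, a factor of Il4 and Il10 expression, was among the 6 (log2 fold change -3.18 in WT, edgeR adjusted p 0.000251).

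Of 14 regulatory T cell genes beside Foxp3, Entpd1 rose and Ikzf4 fell in STAT3KO CD4 T cells. Entpd1, the ectonucleotidase CD39, rose from 31 and 19.8 CPM to 75.9 and 81.5 CPM (edgeR log2 fold change 1.63, SE 0.20, adjusted p 0.00347). In CD8 T cells, edgeR called 0 of the 14 and DESeq2 called 2. An unadjusted edgeR p under 0.05 was found for 3, against 2400 of all 12428 genes. Of these genes, 6 were lower and 3 higher in WT CD8 than in WT CD4 T cells, where 23.8% of all genes were called in either direction. Foxp3 overlapped between these groups.

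On the helper side of Zbtb7b, 3 of 10 genes fell in STAT3KO CD4 T cells (Tcf7, Lef1 and Satb1) and none rose. Tcf7, which encodes TCF-1 of naive and memory cells, fell from 1452 and 1345 CPM to 420 and 389 CPM (edgeR log2 fold change -1.79, SE 0.17, adjusted p 0.00137), and Satb1, a chromatin organiser, fell by 1.45 on the log2 scale (SE 0.12, edgeR adjusted p 0.00101). Both also fell in CD8 T cells, by 1.12 and 1.15 on the log2 scale (edgeR adjusted p 0.0251 and 0.0104). Among 7 partners of the Runx factors, Hdac4 fell in both lineages (edgeR log2 fold change -1.03, adjusted p 0.00183 in CD4, and -0.80, adjusted p 0.0194 in CD8), and Cbfb, the shared binding partner, was not called in either. Among 8 genes of the Ahr pathway, Arnt2 fell in STAT3KO CD4 T cells, from 8.23 and 5.06 CPM to 1.20 and 0.823 CPM (edgeR adjusted p 0.0202). The Ahr target Tiparp was not called (log2 fold change -0.43), nor was any of the 8 in CD8 T cells by edgeR or DESeq2. An unadjusted edgeR p under 0.05 was found there for 1 of the 8, against 2400 of all 12428 genes.

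**Figure D5:**
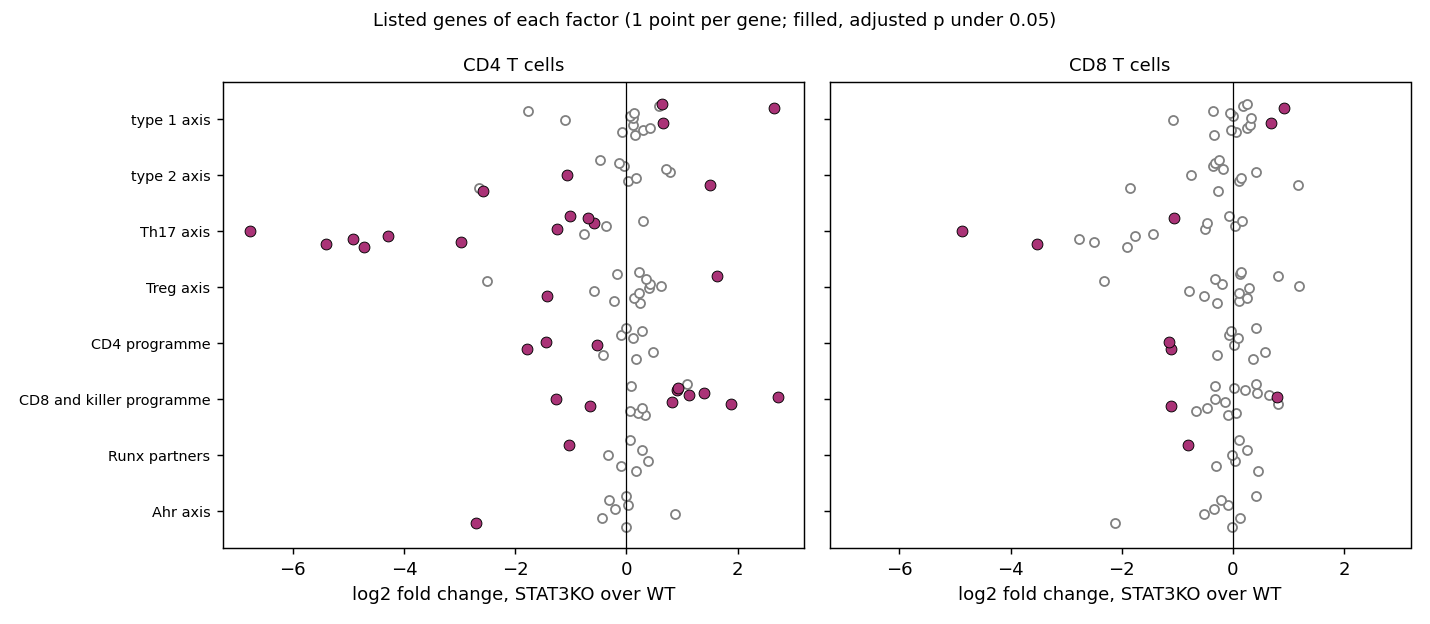
Log2 fold change of STAT3KO over WT (horizontal axis) for each of the 92 listed genes, by list, in CD4 (left) and CD8 T cells (right); filled points have an edgeR adjusted p under 0.05 and the vertical spread within a list only separates the points. In CD4 T cells 10 of 13 Th17 genes are filled on the left of 0 and 7 of 15 killer genes on the right.

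Tbx21, Eomes, Gata3, Runx1, Runx3 and Zbtb7b were higher in the library numbered 1 than in the one numbered 2 in all 4 groups, by 1.12-fold to 2.40-fold. Of all genes tested, 22.6% were higher in number 1 in all 4 groups. Rora was higher in number 1 in 1 group and Foxp3 and Ahr in 2 groups each. The 8 macrophage markers given above moved with the numbers in the opposite direction, and their part in the spread of the factors was not tested. Each number holds 1 library of every group.

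The genes whose log2 CPM most closely followed each member over the 8 libraries, among 8836 with enough expression, are a description only, because the libraries share groups and replicate numbers. Eomes was followed most closely by St3gal6 (r = 0.998) and Cenpa (r = 0.998), Tbx21 by Gas7 (r = 0.988) and Tyw1 (r = 0.982), Gata3 by Znfx1 (r = 0.996) and Arap1 (r = 0.996), and Zbtb7b by Phf1 (r = 0.985) and Mettl7a1 (r = 0.983). Runx3 was followed by Magi3 (r = 0.993) and Smarcd2 (r = 0.987), Runx1 by Zbtb1 (r = 0.991) and Tlk1 (r = 0.985), and Ahr by Kdm6b (r = 0.982) and Aff1 (r = 0.980). The closest genes were less close for Rora (Clcn6, r = 0.949, and Mettl2, r = 0.940) and for Foxp3 (Neat1, r = 0.922, and Arrdc3, r = 0.908).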

How the data were processed

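Donor CD4 and CD8 T cells were sorted from the spleen as H-2Kb+ TCRβ+ cells, and RNA of 8 pools was sequenced as single-end reads. The groups follow the genotype and cell type of the labels. Growth and treatment labels speak of adipogenic cells, do not match sorted T cells and were not used, and the labels and the study's methods name different library kits. The authors aligned reads to mm10 with STAR, counted them per RefSeq gene with HTSeq, and deposited raw counts per gene and RPKM (counts per exon length and library size). Whether counting used strand is not given in the sources used here. Counts kept by filterByExpr (minimum count 10) were TMM-scaled and fitted with edgeR 4.0.16 under R 4.3.3, with all 8 libraries in 1 quasi-likelihood fit and a mean per group. Calls required a Benjamini-Hochberg adjusted p under 0.05 over 12428 genes (two-sided). SEs were derived from the F statistic. The fit was tested on simulated data.

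CPM per library are TMM-scaled, marker CPM excepted. Totals of 20171396 to 23282757 counts per library put a floor of 3 counts at 0.129 to 0.149 CPM (counting error only). Exon sharing was read from GENCODE M21, and promoter windows from RefSeq. Genes named with values by rule were the members, Stat3, Cd4, Cd8a and Cd8b1, the 2 most correlated genes per member and up to 4 genes a list with the lowest adjusted p. Gzmb, Ifng, Il17a and Maf were named after their values were seen. Other listed genes were named only as called or not called, and cell type markers as checks of the labels. The members and the lists were chosen with earlier results of these data known. Alternatives were DESeq2 1.42.0, RLE factors, total counts, no filter, a replicate block, the 4 libraries of a comparison, limma 3.58.1 on log2(RPKM + 1) or log2(RPKM + 0.1), and leaving out each library, where the group left with 1 library is assumed to vary like the others. Some listed genes are counted but not reported here by name.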

Additional observations from a re-analysis of the deposited data

How the results depend on the processing

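Of 711 values under the 16 alternatives, 642 kept their direction and their side of the threshold. The Eomes calls in STAT3KO CD4 T cells and between the lineages held in all 16 alternatives.

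The number of members called for STAT3KO in CD4 rose from 1 to 2 with DESeq2 (Rora added) and to 5 with the replicate block, and for STAT3KO in CD8 from 0 to 2 with the block. For the difference of the effects it rose from 0 to 1 (Eomes) with DESeq2 and with the block, and for CD8 against CD4 in WT from 3 to 5 with DESeq2 and to 7 with the block. Leaving out 1 library gave 1 to 4 members for CD8 against CD4 in WT and in STAT3KO, 1 for STAT3KO in CD4 and 0 for STAT3KO in CD8 and for the difference. The block moved calls over all genes from 1444 to 3747 (STAT3KO in CD4) and from 257 to 2258 (STAT3KO in CD8), while DESeq2 gave 1847 and 885, and the 4 libraries alone 995 and 37. Leaving out 1 library gave 412 to 1307 and 7 to 224 genes, no filter gave 454 for STAT3KO in CD8, and the difference of the effects had 0 genes against 190 with DESeq2, 403 with the block, 44 without the filter and 13 with limma at a pseudocount of 1. For CD8 against CD4, 2960 (WT) and 1555 (STAT3KO) genes became 5232 and 3689 with the block, 1919 and 1676 with the 4 libraries alone, and 1546 to 2598 and 457 to 1554 without 1 library. The labels do not say that a replicate number marks a shared experiment, although the serial numbers in the sample titles split the same way. Deviations of same-numbered libraries correlated at 0.424 to 0.671 over the 6 pairs of groups, and each comparison has 2 pairs. With the block, Tbx21 (log2 fold change 1.09, edgeR adjusted p 0.000691), Runx3 (0.42, 0.00289), Zbtb7b (0.45, 0.00170) and Rora (-0.38, 0.0165) passed beside Eomes in CD4, and Eomes (0.48, 0.0154) and Runx1 (0.29, 0.0499) in CD8.

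Signs turned for uncalled log2 values only. Over the fits that leave out 1 library, STAT3KO in CD4 ran from -0.18 to 0.73 for Gata3, from -0.10 to 0.30 for Runx1 and from -0.83 to 0.0076 for Ahr. STAT3KO in CD8 ran from -0.19 to 0.88 for Tbx21, from -0.20 to 0.37 for Gata3, from -0.11 to 0.77 for Foxp3, from -0.21 to 0.22 for Runx3 and from -0.13 to 0.45 for Zbtb7b. Runx3 there also turned with total counts (-0.029), without the filter (-0.00085) and on log2(RPKM) with pseudocounts 1 (-0.00088) and 0.1 (-0.00090). The difference of the effects ran from -0.67 to 0.24 for Gata3, from -0.44 to 0.43 for Foxp3, from -0.029 to 0.36 for Runx1, from -0.58 to 0.031 for Zbtb7b and from -0.63 to 0.22 for Ahr. CD8 against CD4 ran from -0.022 to 0.22 for Foxp3 in WT, and in STAT3KO from -0.34 to 0.53 for Foxp3, from -0.34 to 0.33 for Tbx21 and from -0.0091 to 0.41 for Runx3. The causes were not tested.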
